A study of Mus musculus with 9 samples.

Results

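The COUP-TF genes Nr2f1, Nr2f2 and Nr2f6 were described through the accessible chromatin regions assigned to them in wild-type mouse embryos. Of 17164 distinct regions in the control list, 23 carried 1 of the 3 symbols: 13 for Nr2f1, 9 for Nr2f2 and 1 for Nr2f6. The genes were chosen by measured values of this list, because Nr2f1 has many regions and none within 1 kb of its start. These counts are therefore a description, and no test was run on them. The series addresses how chromatin opening in the early heart depends on Isl1, a LIM-homeodomain transcription factor, and on the remodeler subunit Brg1. ATAC-Seq, in which Tn5 transposase inserts adapters into open DNA, was performed on hearts and pharyngeal mesoderm taken at embryonic day 8.75, when embryos have 6 somites. There were 3 libraries each of genotype wt, Isl1-/- and Isl1Cre+/-/ Brg1fl/fl, the last being embryos with Cre driven from the Isl1 locus and 2 floxed Brg1 alleles. Only the list of regions common to the 3 wt libraries was used, and the 2 mutant groups were not analysed here. That list gives positions in the mm9 build, an assigned gene and the distance from the region center to the start of that gene, with no height and no value per library, so no value below has a replicate error and the depth is unknown. A site that is missing from the list is not shown to be closed, and in mixed tissue a site open in few cells cannot be told apart from a site weakly open in many.

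COUP-TF proteins are nuclear receptors without an established natural ligand, which bind as dimers to repeats of a short half-site and act mostly as repressors of transcription. Nr2f1 (COUP-TFI) is best known for patterning the cortex and for neural crest and inner ear development, and Nr2f2 (COUP-TFII) for atrial identity of cardiomyocytes and for the identity of veins. Nr2f6 (EAR2) is the more distant member of the group and is best known in lymphocytes and in the brainstem. Nr2f1 lies beside a wide stretch without other coding genes and Nr2f2 within one, while Nr2f6 lies among closely spaced genes. For Nr2f2 this counts only genes that are coding in both the GENCODE and the RefSeq annotation.

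The regions are numbered along the chromosome within each gene. The first sequences are the middles of the CpG-rich regions near the genes, in mm9, plus strand, with every CpG in capitals. Nr2f6 1 is shown because it is the one region that covers a COUP-TF start, and the others because they were the most CpG-rich region of Nr2f2 and CpG-rich regions on either side of Nr2f1. The windows were chr8:73905862-73906161 for Nr2f6 1, chr7:77506549-77506848 for Nr2f2 2, chr13:78342841-78343140 for Nr2f1 3 and chr13:78302641-78302913 for Nr2f1 1, the last ending where an untranslated region begins.
Nr2f6 1: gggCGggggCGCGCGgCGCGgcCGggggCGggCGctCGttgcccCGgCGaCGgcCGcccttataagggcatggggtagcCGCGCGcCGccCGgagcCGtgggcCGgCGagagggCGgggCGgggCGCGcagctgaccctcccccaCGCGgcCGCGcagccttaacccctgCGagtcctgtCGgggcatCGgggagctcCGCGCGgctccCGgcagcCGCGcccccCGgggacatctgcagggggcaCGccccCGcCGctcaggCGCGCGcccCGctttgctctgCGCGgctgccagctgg
Nr2f2 2: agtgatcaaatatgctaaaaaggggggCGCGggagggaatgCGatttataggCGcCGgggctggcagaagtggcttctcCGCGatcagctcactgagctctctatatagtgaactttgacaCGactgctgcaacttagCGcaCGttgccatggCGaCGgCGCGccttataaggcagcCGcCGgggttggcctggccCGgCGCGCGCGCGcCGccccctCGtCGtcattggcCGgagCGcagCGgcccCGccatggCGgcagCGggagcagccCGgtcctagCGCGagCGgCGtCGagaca
Nr2f1 3: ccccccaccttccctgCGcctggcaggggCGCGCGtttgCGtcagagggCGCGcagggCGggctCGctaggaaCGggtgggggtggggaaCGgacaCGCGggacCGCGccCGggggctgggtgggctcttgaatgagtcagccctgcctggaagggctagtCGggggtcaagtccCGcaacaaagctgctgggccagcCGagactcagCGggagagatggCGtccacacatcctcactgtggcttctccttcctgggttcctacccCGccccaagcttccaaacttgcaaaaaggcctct
Nr2f1 1: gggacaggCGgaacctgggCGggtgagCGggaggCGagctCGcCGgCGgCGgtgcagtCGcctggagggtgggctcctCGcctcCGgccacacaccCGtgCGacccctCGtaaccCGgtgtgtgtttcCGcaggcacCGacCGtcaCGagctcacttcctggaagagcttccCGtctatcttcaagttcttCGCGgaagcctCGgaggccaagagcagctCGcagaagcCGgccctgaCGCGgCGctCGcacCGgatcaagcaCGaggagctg
There were 49 CpG in the window of Nr2f6 1, 37 in that of Nr2f2 2, 22 in that of Nr2f1 3, and 31 in the 273 bp shown for Nr2f1 1.

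The next sequences come from far regions, with exact motif matches in capitals. Nr2f1 10 and Nr2f1 11 are shown because both hold the half-site that COUP-TF proteins and other nuclear receptors bind, Nr2f2 3 because it was the widest of the 23 regions, and Nr2f2 5 because it had the most matches of the Nr2f2 regions. The windows were chr13:79075532-79075831, chr13:79169268-79169567, chr7:77769927-77770226 and chr7:77934169-77934468, again in mm9 and on the plus strand.
Nr2f1 10: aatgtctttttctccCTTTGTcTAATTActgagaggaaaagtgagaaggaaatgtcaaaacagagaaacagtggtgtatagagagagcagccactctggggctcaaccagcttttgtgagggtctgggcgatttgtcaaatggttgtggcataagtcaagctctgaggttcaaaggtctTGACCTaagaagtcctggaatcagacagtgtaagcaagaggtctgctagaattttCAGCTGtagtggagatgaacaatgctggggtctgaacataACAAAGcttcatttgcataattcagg
Nr2f1 11: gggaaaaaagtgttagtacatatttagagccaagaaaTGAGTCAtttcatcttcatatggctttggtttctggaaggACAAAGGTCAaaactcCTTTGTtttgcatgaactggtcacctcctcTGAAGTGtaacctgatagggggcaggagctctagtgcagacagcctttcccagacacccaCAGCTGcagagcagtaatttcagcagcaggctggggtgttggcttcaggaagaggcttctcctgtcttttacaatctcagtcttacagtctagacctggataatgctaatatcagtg
Nr2f2 3: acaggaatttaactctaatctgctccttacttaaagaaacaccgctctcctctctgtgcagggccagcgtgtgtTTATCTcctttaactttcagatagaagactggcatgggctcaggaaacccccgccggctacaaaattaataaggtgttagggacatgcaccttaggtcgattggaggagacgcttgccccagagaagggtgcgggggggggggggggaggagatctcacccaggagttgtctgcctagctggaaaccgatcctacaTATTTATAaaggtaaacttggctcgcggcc
Nr2f2 5: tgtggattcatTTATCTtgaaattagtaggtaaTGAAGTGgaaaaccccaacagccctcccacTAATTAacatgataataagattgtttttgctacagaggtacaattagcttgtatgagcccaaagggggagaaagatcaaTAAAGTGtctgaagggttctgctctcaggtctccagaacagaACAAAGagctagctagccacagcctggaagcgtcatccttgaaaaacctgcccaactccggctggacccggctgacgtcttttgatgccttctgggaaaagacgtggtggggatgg
The window of Nr2f1 11 held no CpG, that of Nr2f1 10 held 1, that of Nr2f2 5 held 5 and that of Nr2f2 3 held 10.

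The regions of Nr2f1 on chromosome 13 ran from 78302165 to 79527915, over 1225.75 kb, and those of Nr2f2 on chromosome 7 from 77495266 to 78210356, over 715.091 kb. Together the 13 regions of Nr2f1 covered 14240 bp and the 9 of Nr2f2 covered 11925 bp. Both genes are read from the minus strand, so upstream is toward higher coordinates, and 11 of 13 regions of Nr2f1 and 8 of 9 of Nr2f2 lay upstream of the assigned start. None was within 1 kb of it, against 52.9% of all regions in the list. More than 100 kb away were 9 regions of Nr2f1 and 7 of Nr2f2, against 14.9% of all regions. At least 500 kb separated 5 regions of Nr2f1 and 3 of Nr2f2 from their starts. The shares of all regions that lie upstream or at least 500 kb away were not computed. The next coding gene is 22.7 kb from Nr2f1 downstream (Fam172a) and 2684 kb upstream (Arrdc3). Downstream of Nr2f2, regions were also assigned to Gm29683 and 4930402F11Rik. How far these neighbors set the side was not tested. The nearest region just outside the limit of 1 kb was Nr2f2 2, centered 1220 bp upstream, and the one inside it was Nr2f6 1, centered 160 bp upstream.

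**Figure D1:**
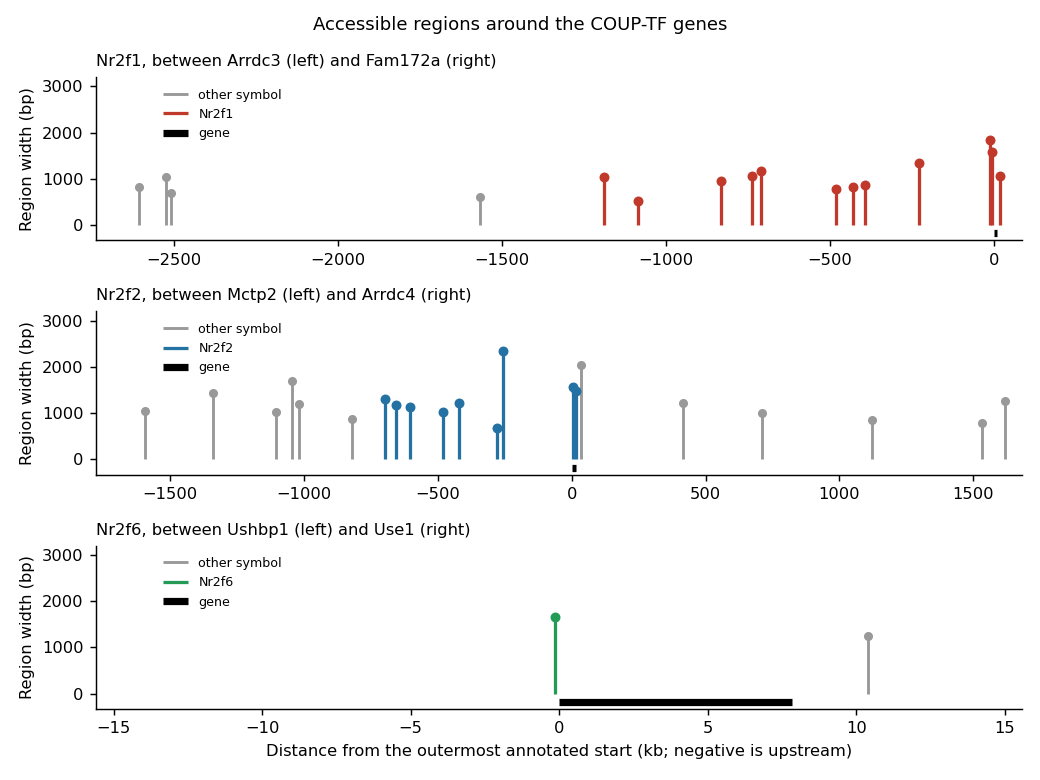
Accessible regions between the coding genes on either side of Nr2f1 (top), Nr2f2 (middle) and Nr2f6 (bottom), at the distance of their centers in kb from the outermost annotated start of the gene (x axis, negative is upstream) and with their width in bp as height (y axis). Colored stems are regions with the symbol of the gene, gray stems regions with another symbol and black bars the gene. The regions of Nr2f1 and Nr2f2 lie mostly upstream. Nr2f1 1, which lies inside Fam172a, is outside the top panel.

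Around Nr2f1 the near regions were placed on both sides of the gene. Nr2f1 1, of 1253 bp, was centered 32919 bp downstream, over the last coding exon of the neighboring gene Fam172a, of which 140 bp of coding sequence and 504 bp of untranslated sequence lay in the region. Nr2f1 2, of 1065 bp, was centered 16835 bp downstream and lay between genes. Nr2f1 3, of 1573 bp, and Nr2f1 4, of 1836 bp, were centered 4857 and 11339 bp upstream, both in introns of the long noncoding RNA gene A830082K12Rik, which is not a symbol in the list. The nearest start of that gene in the GENCODE annotation was 1177 bp from the center of Nr2f1 3. Those 2 regions, 4778 bp apart, were the closest pair at Nr2f1.

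Farther upstream, 9 regions of Nr2f1 lay between genes without overlap with any annotated gene. Nr2f1 5, of 1341 bp, was centered 228734 bp away. A looser run followed with Nr2f1 6 at 391918 bp, Nr2f1 7 at 430516 bp and Nr2f1 8 at 480829 bp, of 859, 822 and 772 bp. Nr2f1 9 and Nr2f1 10 lay closer together, at 711148 and 737547 bp, of 1161 and 1052 bp. The last 3 were single regions, Nr2f1 11 at 831283 bp, Nr2f1 12 at 1086822 bp and Nr2f1 13 at 1189264 bp, of 952, 520 and 1034 bp. Nr2f1 12 was the narrowest of the 23 regions. When regions with a gap of at most 10 kb were joined, the 13 regions of Nr2f1 formed 12 groups, so that they were scattered singly over the locus, with a median gap of 71125 bp between neighbors and a widest gap of 254803 bp.

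Nr2f2 had 2 regions near the gene and 7 far upstream. Nr2f2 1, of 1474 bp, was centered 9477 bp downstream of the assigned start, just past the end of the gene. Nr2f2 2, of 1557 bp, lay just upstream of that start, within an intron of the longer Nr2f2 transcript. From there the next region was 261424 bp away, the widest gap at Nr2f2. Nr2f2 3, of 2351 bp, was centered 258445 bp upstream of the start of the longer transcript and was wider than 99.2% of the 2550 regions that lie over 100 kb from their start. Next to it stood Nr2f2 4 at 277454 bp, the narrowest of Nr2f2 with 670 bp. The remaining 5 regions lay at 422686, 479324, 605268, 657048 and 698071 bp, and their widths ranged from 1024 bp in Nr2f2 6 to 1307 bp in Nr2f2 9. Joined at 10 kb, the 9 regions made 8 groups, with a median gap of 53067.5 bp.

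Nr2f6 had the opposite arrangement. Its single region, of 1664 bp at chr8:73905180-73906843, contained 2 of the annotated Nr2f6 starts, at 73905805 and 73905859, and no far region carried the symbol. Its nearest coding neighbors Use1 and Ushbp1 leave an interval of 14.5 kb, which held 1 other region, assigned to Ocel1.

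Starts of Nr2f1 and Nr2f2 were looked up in full, since a gene can have a region at a start other than the assigned one. The deposited distances imply 2 starts for Nr2f1, at 78335710 for Nr2f1 1 and 2 and at 78338134 for the other 11 regions, and 2 for Nr2f2, at 77505479 for Nr2f2 1 and 2 and at 77511632 for the other 7. No edge of any region came closer than 4071 bp to either start of Nr2f1, and the 5 Nr2f1 starts of the GENCODE annotation were 3187 to 10297 bp from the nearest edge. The edge of Nr2f2 2 was 442 bp from the start at 77505479, and the other start of Nr2f2 was 4155 bp from any region. So Nr2f2 had a region beside 1 start but not over it, and Nr2f1 had none beside any. Measured instead by region centers, 9902 of 22367 coding genes, or 44.3%, had a center within 1 kb of a GENCODE start. By that measure Nr2f6 had one and neither Nr2f1 nor Nr2f2 did.

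Base composition at those starts differed. Within 500 bp of the start at 78338134, Nr2f1 has a GC content of 76.8% and 12.7 CpG per 100 bp, which is above the highest value over the starts of 97.5% of coding genes. Of the 872 coding genes whose highest value is within 10% of that, 686, or 78.7%, had a region center no farther than 1 kb from a start. The CpG-rich start of Nr2f1 had none, like the minority of those genes. It is not a GENCODE start, so Nr2f1 itself is not 1 of the 872. The share of 31-base words in that window that occur more than once in the genome was 0%, and how reads mapped there was not tested. Of the GENCODE starts of Nr2f1 the highest, at 78339018, had 6.29 CpG per 100 bp, close to which 69.9% of 2674 genes had a region. For Nr2f2 the start beside Nr2f2 2 had 7.79 CpG per 100 bp, with a region at 71.4% of 2561 genes of like content. The longer transcript starts in DNA with 1.20 CpG per 100 bp. Among the 1014 genes whose highest value is close to that, 3.06% had a region. Nr2f2 is not 1 of them, since its highest value is 7.79. Nr2f6, with 14.9 CpG per 100 bp at the assigned start, belonged with 313 genes of which 76.0% had a region, and was one of them.

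CpG content of the regions themselves was higher near the genes than far from them. The 6 regions of Nr2f1 and Nr2f2 within 100 kb had a median of 5.03 CpG per 100 bp and a range of 3.85 to 10.9, and all 6 were richer than the median of their distance class. In Nr2f2 2 the value was 10.9, higher than in 99.3% of the 1341 regions that lie 1 to 10 kb from a start, whose median was 2.46. In Nr2f1 1, over the Fam172a exon, it was 7.50, higher than in 98.0% of the 4190 regions 10 to 100 kb away, whose median was 1.45. Intermediate values were seen in Nr2f1 2 with 3.85, Nr2f1 3 with 4.64, Nr2f1 4 with 3.92 and Nr2f2 1 with 5.43 CpG per 100 bp. Nr2f6 1, over its start, reached 11.2 and was above 98.2% of the regions within 1 kb of a start.

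**Figure D2:**
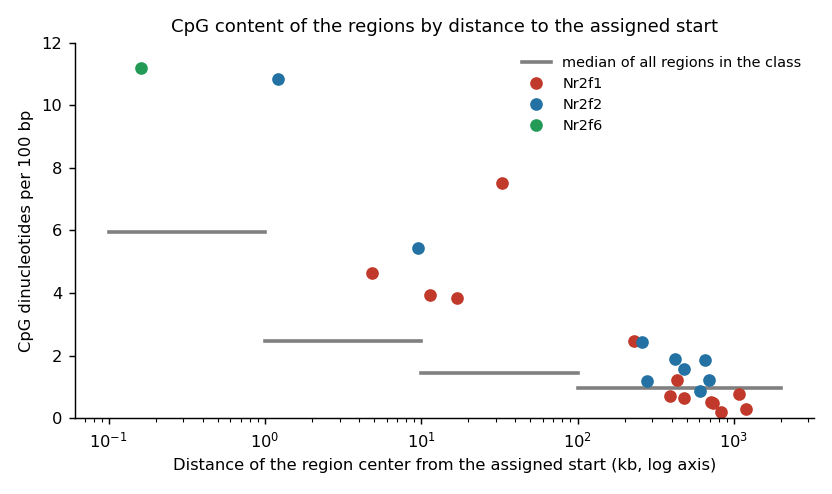
CpG dinucleotides per 100 bp (y axis) of the 23 regions against the distance of their centers from the assigned start in kb (x axis, log scale), with 1 point per region colored by gene. Gray lines are medians over all regions of the list in 4 distance classes. Nr2f6 1 at 11.2 and Nr2f2 2 at 10.9 stand highest, and the near regions of Nr2f1 and Nr2f2 are all above their class medians.

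Beyond 100 kb the values were lower, more so at Nr2f1. The 9 far regions of Nr2f1 had a median of 0.648 CpG per 100 bp and a median GC content of 40.8%, and 2 of them, Nr2f1 5 with 2.46 and Nr2f1 7 with 1.22, had more CpG than the class median of 0.963. The poorest was Nr2f1 11 with 0.210. The 7 far regions of Nr2f2 had a median of 1.56 and a GC content of 47.8%, and 6 of 7 were above the class median, with Nr2f2 7 at 0.880 the exception and Nr2f2 3 at 2.42 the highest. The ranges overlapped, from 0.210 to 2.46 at Nr2f1 and from 0.880 to 2.42 at Nr2f2. Regions of 1 locus share their local base composition and are not independent, so the difference was not tested.

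Widths showed a like pattern. All 6 near regions of Nr2f1 and Nr2f2 were wider than the median of their class, with a median width of 1515.5 bp, where the class medians were 1039 bp at 1 to 10 kb and 949.5 bp at 10 to 100 kb. Of the far regions, 5 of 9 at Nr2f1 and 6 of 7 at Nr2f2 were wider than the class median of 919 bp. The median far width was 952 bp at Nr2f1 and 1180 bp at Nr2f2. Over all distances the regions of Nr2f1 ranged from 520 to 1836 bp with a median of 1052 bp, and those of Nr2f2 from 670 to 2351 bp with a median of 1226 bp, around the median of 1123 bp of the whole list. Width is set in part by the fixed extension of reads in peak calling and by depth, so it is a rough measure of accessibility.

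**Figure D3:**
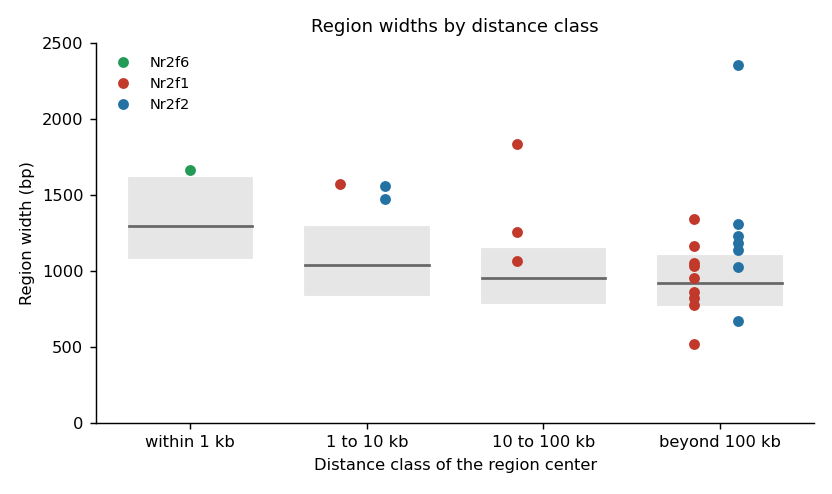
Width in bp (y axis) of the 23 regions in 4 classes of distance from the assigned start (x axis), with 1 point per region colored by gene. Gray boxes span the middle 50% of all regions of the class and dark lines their medians. All near regions of Nr2f1 and Nr2f2 are above the median lines, and Nr2f2 3 with 2351 bp stands apart from the other far regions.

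The gap upstream of Nr2f1 and both gaps beside Nr2f2 were among the largest between genes that are coding in both GENCODE and RefSeq. This set of neighbors was chosen after seeing the data. Among genes coding in GENCODE alone, B130024G19Rik lies 19.8 kb upstream of Nr2f2, and the large gap on that side is not present. Downstream of Nr2f1, by contrast, Fam172a is 22.7 kb away, a gap that ranks 8095 by size of 16824. Upstream of Nr2f1 there are 2684 kb to Arrdc3 (an arrestin-domain gene), the gap that ranks 50 by size of 16824, and it held 15 regions, or 5.59 per Mb. Of those, 11 were assigned to Nr2f1 and 4 to Arrdc3, the nearest of these 1566 kb from the start of Nr2f1. Downstream of Nr2f2 there are 1603 kb to Arrdc4, with 7 regions or 4.37 per Mb, and upstream 1711 kb to Mctp2, with 13 regions or 7.60 per Mb. Over the 304 gaps of at least 1 Mb the median was 2.29 regions per Mb and the middle 50% ran from 1.28 to 4.02. By density the 3 gaps of that size ranked 35, 65 and 9 of 304, in the order given, so all 3 were above the upper bound of that range. Downstream of Nr2f2 the density of 4.37 was close to that bound. There, 1 of the 7 regions was centered 62 bp upstream of the assigned start of Arrdc4, and the density without it was not computed. Since the members were chosen for many regions, the ranks describe the loci and test nothing.

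**Figure D4:**
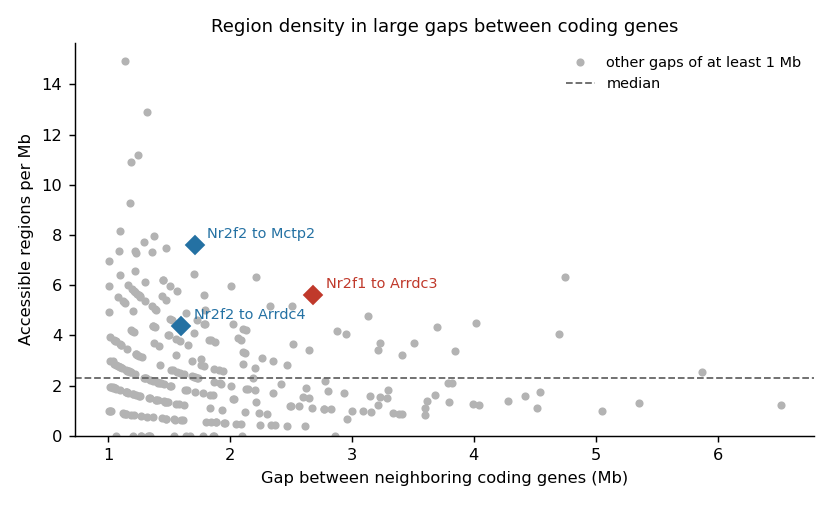
Accessible regions per Mb (y axis) against the size in Mb (x axis) of the 304 gaps of at least 1 Mb between neighboring genes, 1 point per gap. Only genes coding in both GENCODE and RefSeq were counted as neighbors. Diamonds are the gap upstream of Nr2f1 and the 2 gaps beside Nr2f2, at 5.59, 7.60 and 4.37 regions per Mb, and the dashed line is the median of 2.29.

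Not all regions around Nr2f2 carry its symbol. Between Arrdc4 and Mctp2, over 3329 kb, the list has 21 regions, of which 9 were assigned to Nr2f2. Predicted and noncoding genes took most of the rest: 5 were assigned to 4930441H08Rik, 2 to Gm29683, 2 to 4930402F11Rik and 1 to 1700011C11Rik, and 2 to Arrdc4. One of the Gm29683 regions was centered 35.2 kb downstream of the outermost Nr2f2 start. On the upstream side the regions of Nr2f2 end at 698071 bp and those of 4930441H08Rik begin 822 kb away. Around Nr2f1, by contrast, 12 of 16 regions between Fam172a and Arrdc3, over 2717 kb, were its own. The gene symbol is the deposited assignment, and whether a region acts on that gene was not measured.

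Few genes combined many regions with none at the start. Of 11541 genes with a region, 35 had 9 or more, which is 0.303%, and 8 of these 35 had none within 1 kb, which is 22.9%. For comparison, 26.2% of the 3098 genes with 2 or more regions had none within 1 kb. Nr2f1 ranked 5 by number of regions and Nr2f2 ranked 21, a place it shared with all other genes that had 9 regions. With 10 or more regions the pattern was shared by 2 genes, Nfia (a transcription factor of glia) with 10 regions, the nearest 5456 bp from the assigned start, and 4930486I03Rik with 10, the nearest 11514 bp away. Each had 6 regions beyond 100 kb, against 9 of Nr2f1. Adcyap1, Efna5, Tenm4 and Tiam1, named after their values were seen, had 9 regions and none within 1 kb, as Nr2f2 did, and between 1 region (Tiam1) and 8 regions (Adcyap1) beyond 100 kb.

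Short motifs were searched as exact matches on both strands in the central 300 bp. The nuclear receptor half-site AGGTCA occurred in 3 of 23 regions (13.0%), Nr2f1 10, 11 and 12, against 13.5% of all regions. No member region held that half-site repeated directly with 1, 2 or 5 bases between the copies, the forms called DR1, DR2 and DR5, which were found in 13, 3 and 1 of all regions. In Nr2f1 10 the half-site lies on the minus strand 32 bp from the center, and in Nr2f1 11 on the plus strand, 66 bp from the center, where it shares bases with a SOX match. No half-site was seen in the centers of the Nr2f2 regions.

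The motif CTAATG, bound by LIM homeodomain factors such as Isl1, occurred in 2 of 23 regions (8.70%), Nr2f1 6 and Nr2f1 12, against 6.85% of all regions. Both lie over 100 kb from the start, where 13.7% of all regions held it. TAATTA, the general homeodomain core, occurred in 3 regions (13.0%), Nr2f1 10, Nr2f1 13 and Nr2f2 5, against 4.33%. These also lie over 100 kb away, where the share was 3 of 16 at Nr2f1 and Nr2f2 and 10.7% in the list. Of the motifs of cardiac factors, AGATAA, bound by GATA factors, occurred in 4 regions (17.4%) against 8.55%, and over 100 kb away in 3 of 16 against 17.3%. NK2 (CACTTNA) occurred in 3 regions (13.0%) against 9.76%, all of them over 100 kb away, where the list had 15.9%. T-box (GGTGTG) occurred in 4 regions (17.4%) against 16%, and over 100 kb away in 2 of 16 against 14.8%. MEF2 (TATTTATA) occurred in 1 region (4.35%), Nr2f2 3, against 0.437%, and against 0.784% over 100 kb away. That region also held a GATA match. In Nr2f2 5 a GATA match, 2 NK2 matches, a homeodomain match and a SOX match lay in the same 300 bp.

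SOX (ACAAAG) was the most frequent match, in 9 of 23 regions (39.1%) against 21.6% of all regions, and 8 of those 9 were regions of Nr2f1. Among regions more than 100 kb from a start it was found in 7 of 16 at Nr2f1 and Nr2f2 and in 39.5% of the list. The E-boxes CAGCTG and CATCTG were found in 7 regions (30.4%) and 6 regions (26.1%), against 19.6% and 15%. TEAD (GGAATG) was found in 5 (21.7%), against 15.4%, and MEIS (TGACAG) in 4 (17.4%), against 18.5%. AP-1 (TGANTCA) was found in 4 (17.4%), against 5.55%, and forkhead (TGTTTAC) in 1 (4.35%), against 3.57%. Matches of different motifs may overlap, and the far class is richer in A and T, so the far shares are the closer comparison. Over 100 kb away they were 3 of 16 for AP-1 against 9.37%, 3 of 16 for the half-site against 18.2%, 5 of 16 and 4 of 16 for the E-boxes against 23.4% and 22.9%, 3 of 16 for TEAD against 24.2%, 3 of 16 for MEIS against 26.5% and 1 of 16 for forkhead against 6.82%. Nr2f2 8 held no match to any of the 17 motifs. With 16 regions a difference of 1 region moves a share widely, and a match is a description of letters, not of binding.

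**Figure D5:**
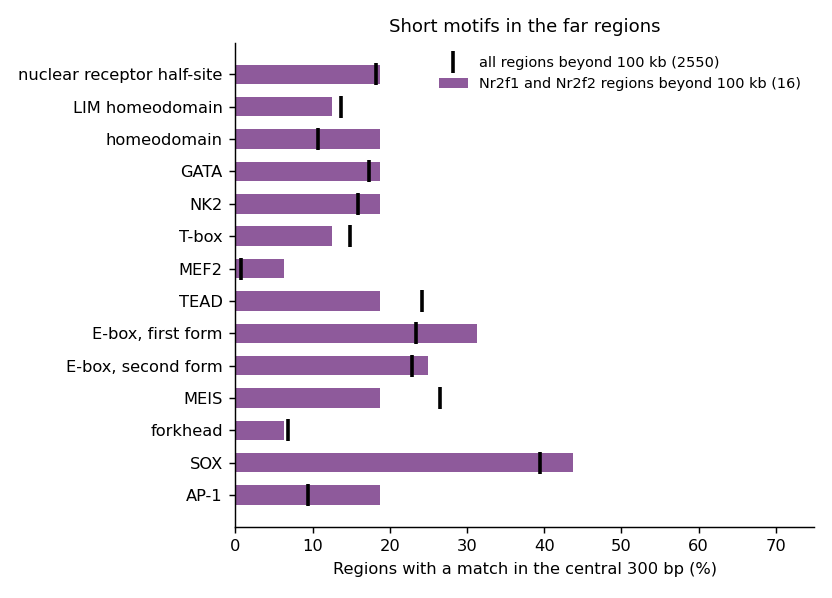
Share in percent (x axis) of regions beyond 100 kb that hold each motif in the central 300 bp (y axis, 1 row per motif), for the 16 regions of Nr2f1 and Nr2f2 (bars) and all 2550 regions of that class (black marks). The first form of E-box is CAGCTG and the second CATCTG. SOX stands highest in both, with 7 of 16 and 39.5%.

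No sequence shared between the regions was found. In a local alignment of all 23 against the whole list, no region of a COUP-TF gene matched a region of another or of the same gene, and 1 of 23, Nr2f1 6, matched 1 other region, assigned to Zfp386, with 85.4% identity over 48 bp. Exact repeats were nearly absent too: the share of 31-base words that occur more than once in the genome was 0 in 21 regions, 0.917% in Nr2f2 2 and 0.870% in Nr2f2 8. Diverged copies elsewhere in the genome were not searched for.

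Other nuclear receptor genes of the lists examined had fewer regions than Nr2f1 and Nr2f2. Nr2f1 was chosen for its many regions, so this comparison is a description and tests nothing. Nr2f6, with 1 region, had fewer than Rarb or Thrb. As background for the lists that follow, 9199 of 18217 genes that are coding in both GENCODE and RefSeq, or 50.5%, had an assigned region. Of the other NR2 genes, Nr2c1, Nr2c2 and Nr2e1 had 1 region each and Nr2e3 had none. Of 6 retinoid receptor genes, whose products share target repeats with COUP-TF proteins, 3 had a region, led by Rarb with 7, of which 1 lay within 1 kb of its start and 3 beyond 100 kb. Of 28 further receptor genes, 19 had a region, with Thrb at 6 and Esrrg and Nr5a2 at 5. Nr5a2 was 1 of 4 of these 28 genes that had 2 or more regions and none within 1 kb. Of all genes in the list with 2 or more regions, 26.2% had none within 1 kb. That share leaves out genes with fewer regions, which the 28 include, so 4 of 28 cannot be set against it. The 5 regions of Nr5a2 were all beyond 100 kb. Of 10 genes for partners and corepressors of COUP-TF proteins, 7 had a region, among them Hdac2 with 3, Zfpm1 (FOG1) with 2 and Prox1 with 2, and Bcl11a, Bcl11b and Ncor1 had none.

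Nr2f2 is known for roles in atrial and venous identity, and genes of these programs were looked up as counts only, with no test. Of 6 atrial genes only the potassium channel gene Kcna5 had a region, and of 4 ventricular genes only Hey2, with 4 regions. All 3 venous genes had at least 1 region within 1 kb of the start, with 3 for the apelin receptor gene Aplnr, 2 for Nrp2 and 1 for Ephb4. Of 5 arterial genes, Efnb2 had 11 regions, Hey1 had 4 and Nrp1 had 1, and Notch1 and Dll4 had none. Among markers of cell types, Isl1 had 9 regions including 1 within 1 kb of its start. In all, 4 of 7 markers of second heart field and pharyngeal mesoderm had a region. Of 9 cardiomyocyte markers 4 did, with Nkx2-5, Myh6, Tnnt2, Actc1 and Myl7 at 0, and regions were also assigned to 4 of 5 endothelial, 1 of 4 blood, 4 of 5 neural, 1 of 3 neural crest and 2 of 3 endoderm markers. Since 50.5% of genes coding in both GENCODE and RefSeq had a region, these small counts cannot check the tissue label. The part of these cell types in the COUP-TF regions was not tested, and a region near a gene is no measure of its expression.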

How the data were processed

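The genotype label defined the groups of ATAC-Seq libraries, and the 3 wt libraries enter as 1 list. The authors mapped reads to mm9 with Bowtie2, removed duplicates with Picard 1.136, called peaks per library with MACS with the model step switched off and a set shift size, removed blacklisted peaks, and kept regions common to the 3 libraries with bedtools 2.15, where peaks overlapped by 1 bp or more. The deposited values are positions and distances in bp, with an assigned transcript and symbol. The tool that assigned genes to these regions is not given in the sources used here, nor is a Tn5 offset, so region edges are not insertion sites. A common region carries the coordinates of 1 library, and requiring it in all 3 favors strong sites.

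Rows with the same position were counted once, which left 17164 of 17432 rows. Positions were taken as 1-based. Sequence, gene structure and starts came from the same build (NCBIM37) with GENCODE. RefSeq promoter sequences of the members, tabulated for GRCm38.p6, were located in mm9 by sequence to check the assigned starts and are not printed. A second set of neighbors used genes that are coding in both GENCODE and RefSeq, by name, and was chosen after seeing the data. Distance classes follow the deposited distance. Regions were aligned with BLAST 2.17.0 at an E-value of 1e-05. Motif counting was tested on simulated data. Python 3.11.15, numpy 2.4.6, pandas 2.3.3 and matplotlib 3.10.9 were used. No column of values was left unmapped (0 columns). The members and the lists were chosen with earlier results of these data known. Genes were named by rule: the members, the coding genes beside them, the genes with regions in between, genes with 10 or more regions and none within 1 kb, and up to 4 genes per list.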

Additional observations from a re-analysis of the deposited data

How the results depend on the processing

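Of the counts for Nr2f1, Nr2f2 and Nr2f6, 20 alternative values were within 1.5 times the reported ones and 6 were not. Some of the 20 could not differ, so they are no measure of stability. No region of these genes was on repeated rows, and a limit of 500 bp cannot raise a count of 0 at 1 kb. When regions narrower than the median were dropped, 5 of 13 regions of Nr2f1 were left. Assigning each region to the nearest GENCODE start of any gene type gave 3 regions to Nr2f1 and 3 to Nr2f2. This was because noncoding and small RNA genes lie in the gaps. Of their own regions only Nr2f1 1 and 2 and Nr2f2 1 and 2 were kept. Each count of 3 thus includes a region with another symbol in the list. With protein-coding starts only, Nr2f1 had 14 and Nr2f2 had 5. None of the 7 far regions of Nr2f2 was kept, because predicted coding genes lie upstream of it. Its count of 5 thus includes regions with another symbol in the list. Raising the limit from 1 kb to 5 kb gave 1 region near the start for Nr2f1 and 1 for Nr2f2, and moved the share of all genes with 2 or more regions and none near the start from 26.2% to 20.5%. With neighbors that are coding in GENCODE alone, the interval around Nr2f2 ended at B130024G19Rik, spanned 1637 kb and held 8 regions, 2 of them of Nr2f2. Searching the whole region moved the number of regions with a match by over 1.5 times for 12 of 17 motifs, for example from 3 to 11 for the half-site and from 2 to 10 for CTAATG, where 46.0% and 26.9% of all regions then had one, and the central 150 bp moved it for 10. No paired analysis was possible because the list holds no value per library, and for the same reason no library could be left out. Depth, which is unknown, limits all statements on missing regions.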
